A study of Drosophila melanogaster with 8 samples.

Results

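Bacc, eIF3c and Mapmodulin are 3 genes whose transcripts were followed here in RNA of Drosophila melanogaster testes, before and after anti-HA pull-down of the cytoplasmic RNA-binding protein HOW(S). Their 5 transcripts, Bacc-RC (FBtr0307080), Bacc-RD (FBtr0335125), eIF3c-RB (FBtr0340269), Mapmodulin-RA (FBtr0086823) and Mapmodulin-RB (FBtr0086822), are 5 of the 30069 transcripts quantified in every library. They were taken by identifier because the study followed these genes in cultured S2 cells after RNAi against HOW(S). That rule used no level of the testis libraries, although earlier results of these libraries were known when the genes were picked. There were 8 libraries. In 3 replicates, labelled UAS-HOW-S-HA/nanos-GAL4, the nanos-GAL4 driver expressed HA-tagged HOW(S) in the stem cells of the germline and in young spermatogonia, and RNA was taken from the cleared testis lysate (input) and from the anti-HA beads (pull-down) of the same lysate. The control was the parent line, labelled nanos-GAL4/nanos-GAL4, which carries the driver and no tagged protein, with 1 input and 1 pull-down. Each lysate pooled the testes of many young males, so a level is that of the RNA kept in the cleared lysate of all testis cells, of which the cells that express the tagged protein are a minority.

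HOW (Held out wings) belongs to the STAR family of RNA-binding proteins, with Quaking as its mammalian counterpart. HOW(S) is a short isoform that lacks the nuclear retention signal of the long one. In the cytoplasm STAR proteins can change the stability or the translation of the mRNAs they bind, often through short elements of the CUAAC kind in 3′-UTRs. eIF3c encodes a core subunit of eukaryotic initiation factor 3, which helps to load mRNAs onto the small ribosomal subunit. Mapmodulin encodes the fly member of the ANP32 family, acidic leucine-rich nuclear phosphoproteins whose mammalian members inhibit protein phosphatase 2A and bind histones. Bacc encodes a nuclear protein known in flies from work on the response to ethanol.

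On Release 6 of the fly genome, Bacc occupies 2L:2752445-2757975, a span of 5531 bp, and RefSeq annotates 4 transcripts for it. The gene eIF3c lies at 2R:17665678-17669275 with 2 RefSeq transcripts, and Mapmodulin at 2R:17866178-17872015 with 4. The deposited lengths were 2221 nt for Bacc-RC, 2524 nt for Bacc-RD, 3275 nt for eIF3c-RB, 2073 nt for Mapmodulin-RA and 2145 nt for Mapmodulin-RB. The study describes CUAAC motifs in the 3′-UTRs of transcripts of all 3 genes. This is the kind of sequence that HOW is known to bind. Those of eIF3c and Mapmodulin are not printed here. The element of Bacc is given for both isoforms, with all of its bases in capitals and written 5′ to 3′.
Bacc-RC: UCUAAC
Bacc-RD: UCUAAC

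The libraries held between 9131088 and 24018472 estimated reads, the shallowest being HOW(S)-HA input 1. Transcripts of 300 nt or less took between 36.2% and 68.2% of all TPM (a level per length, relative to the total of its library) but only 0.665% to 3.87% of the reads. The log2 of the plain TPM ratio of pull-down to input was taken over transcripts with at least 10 reads in both libraries of a pair. Its median was 1.19, 0.81 and 0.30 in HOW(S)-HA pairs 1, 2 and 3 and 0.74 in the nanos-GAL4 pair. A plain TPM ratio of 1 therefore lay below the typical transcript in every pair, and fold changes were computed after TMM normalisation, which centres each pair near its typical transcript. The how-RB isoform was at 0.457, 0.844 and 0.538 TPM in inputs with HOW(S)-HA and at 1.02 TPM in that of nanos-GAL4, so the presence of the transgene was not visible in its input level. In the pull-downs how-RB was at 15.4, 7.17 and 2.19 TPM with HOW(S)-HA and at 2.51 TPM in nanos-GAL4. On that scale replicates 1 and 2 stood above the control and replicate 3 below it. In estimated reads how-RB had 773, 412 and 156 with HOW(S)-HA and 108 in nanos-GAL4, whose library was deeper than that of replicate 3. The order of replicate 3 and the control in the pull-downs thus depended on the scale. Relative to the input of the same pair, however, the TPM of how-RB rose more in every HOW(S)-HA pair than in nanos-GAL4. Markers of testis cell types were not analysed here. In RNA from many cell types together, fewer cells of a type and less RNA per cell cannot be told apart.

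Mapmodulin-RA was the most abundant at 13.2 ± 0.403 TPM in the HOW(S)-HA inputs (mean ± SD, n = 3). Mapmodulin-RB at 2.07 ± 0.326 TPM and eIF3c-RB at 1.81 ± 0.328 TPM overlapped between replicates. Bacc-RC followed at 1.17 ± 0.129 TPM, below all 3 values of either, and Bacc-RD was near the limit of detection at 0.0434 ± 0.0141 TPM. In the nanos-GAL4 input Mapmodulin-RA was again far above the rest, and Mapmodulin-RB, Bacc-RC and eIF3c-RB lay close together at 1.13, 1.10 and 1.03 TPM.

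**Figure D1:**
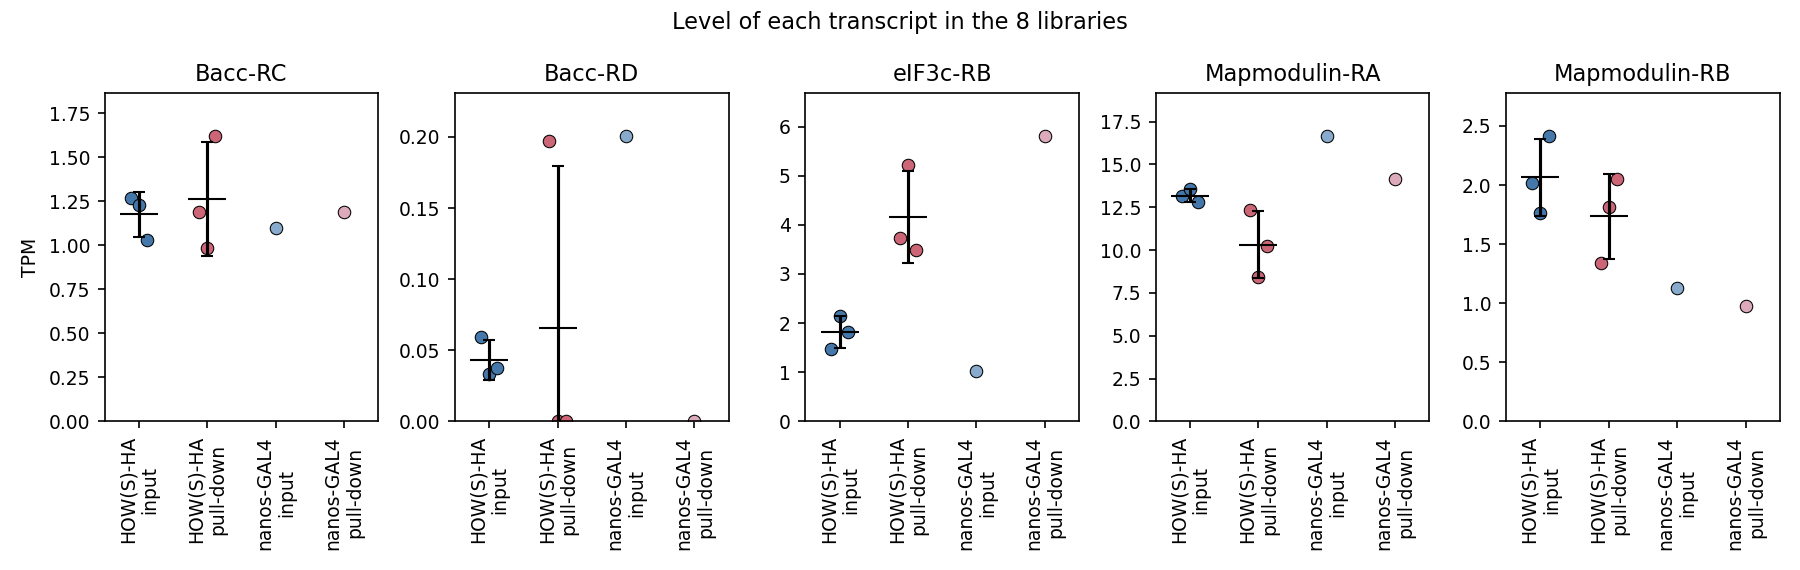
TPM of each of the 5 transcripts (vertical axis, linear, from 0, with its own scale in each panel) in the 8 libraries by group. Points are libraries, and the bar with whiskers is the mean ± SD of the 3 HOW(S)-HA replicates. eIF3c-RB was higher in all 4 pull-downs than in all 4 inputs, whereas Bacc-RC overlapped between input and pull-down.

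None of these transcripts was quantified from reads of its own alone. Salmon divides reads that match several transcripts among them, so transcripts that share reads with no others hold a whole number of reads together, although each one holds a fraction. The estimated reads of the 4 Mapmodulin isoforms RA, RB, RC and RD added up to a whole number in 8 of 8 libraries, within a tolerance of 0.0035 reads. Among all transcripts only FBtr0086836 completed eIF3c-RB to whole numbers in 8 of 8 libraries, and only the pair FBtr0077713 and FBtr0077714 completed Bacc-RC with Bacc-RD. The sources used here do not pair these 3 identifiers with a gene name, and the search was made after the values had been seen. The resulting sets have 4, 2 and 4 transcripts for Bacc, eIF3c and Mapmodulin, the same numbers as RefSeq annotates for the 3 genes. They are called the read-sharing sets of the 3 genes here.

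The members were a small part of 2 of the sets. eIF3c-RB held 9.01%, 8.22% and 6.88% of the reads of its set in HOW(S)-HA inputs 1, 2 and 3, and FBtr0086836, with a length of 3143 nt, held the rest. Its share in the nanos-GAL4 input was 3.39% of 4395 reads (95% exact binomial interval 2.87% to 3.97%), below the 3 HOW(S)-HA inputs. In the pull-downs the share was 7.53%, 12.1% and 10.6% with HOW(S)-HA and 11.5% in nanos-GAL4. Intervals of this kind cover counting error only, not the uncertainty of the division.

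Bacc-RC held 25.0%, 26.2% and 20.9% of its set in inputs with HOW(S)-HA and 16.7% in that of nanos-GAL4. Its share was 16.8%, 16.2% and 27.2% in the HOW(S)-HA pull-downs, so input and pull-down overlapped, and 17.1% in the nanos-GAL4 pull-down. The largest part of the Bacc set was FBtr0077714, with 55.5% to 58.0% in inputs with HOW(S)-HA and 43.0% in that of nanos-GAL4. Bacc-RD never exceeded 3.52%.

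Mapmodulin-RA held most of its set in every library, from 70.6% in HOW(S)-HA pull-down 2 to 84.8% in the nanos-GAL4 input. Mapmodulin-RB held 13.0%, 11.3% and 15.4% in inputs with HOW(S)-HA, and 5.98% in that of nanos-GAL4 (95% exact binomial interval 4.91% to 7.23%). Its share in the pull-downs was 8.85%, 15.9% and 15.9% with HOW(S)-HA and 6.07% in nanos-GAL4. Both nanos-GAL4 libraries were thus below all 6 HOW(S)-HA libraries for this isoform, with 1 lysate of that line.

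The other Mapmodulin isoforms moved between libraries of the same group. Mapmodulin-RC was listed at 0 in HOW(S)-HA input 1, where Mapmodulin-RD had 58.0 reads, and at 90.1 and 107 reads in inputs 2 and 3, where Mapmodulin-RD was at 0. Mapmodulin-RD was at 0 in all libraries except HOW(S)-HA input 1. In the pull-downs Mapmodulin-RC had 120, 112 and 87.5 reads with HOW(S)-HA and 80.9 in nanos-GAL4.

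**Figure D2:**
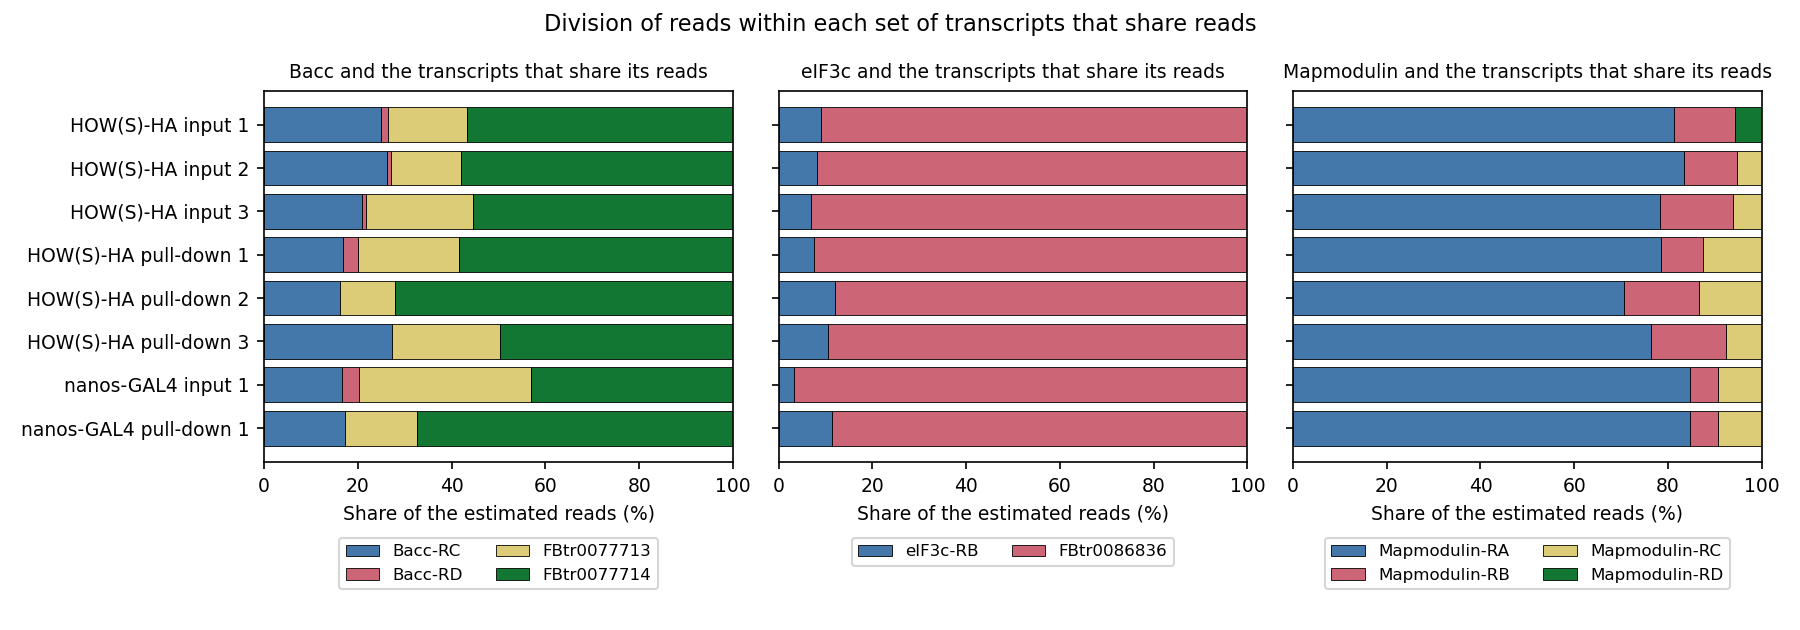
Share of the estimated reads (horizontal axis, percent) that each transcript held within its read-sharing set, for the 8 libraries (rows), with 1 panel per gene. eIF3c-RB was a minor part of its set, from 3.39% in the nanos-GAL4 input to 12.1% in HOW(S)-HA pull-down 2, whereas Mapmodulin-RA held between 70.6% and 84.8% of its set.

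The first comparison asks which RNAs stayed on the beads when HOW(S)-HA was present. Of 12618 transcripts tested in the 3 pairs, 405 (3.21%) were called enriched and 49 (0.388%) depleted, at a log2 fold change of at least 1 in size and an adjusted p (Benjamini-Hochberg) up to 0.05 in edgeR's quasi-likelihood F-test. None of the 4 members tested was called in either direction, with 3 of them at an unadjusted p under 0.05, as were 2063 transcripts above 0 and 1622 below 0 (29.2% of all tested), and Bacc-RD did not pass the filter on low counts. eIF3c-RB was the only member with a positive log2 fold change, and Mapmodulin-RA came closest to the threshold on the depleted side. The median log2 fold change of the 4 was -0.68, against 0.02 for all transcripts tested. When the filter on low counts was applied by condition, none of 16878 transcripts (0%) was called.

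eIF3c-RB was at 1.48, 2.14 and 1.81 TPM in the inputs and at 3.73, 5.23 and 3.50 TPM in the pull-downs. All 3 pull-downs were above all 3 inputs on the TPM scale. The estimated reads behind these levels were 153, 377 and 318 in the inputs and 375, 603 and 499 in the pull-downs.

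The TPM of eIF3c-RB in the pull-down was 2.52, 2.45 and 1.93 times that in the input of the same pair. After TMM normalisation the log2 ratios were 0.18, 0.62 and 0.68 in pairs 1, 2 and 3. These are the 59.7th, 84.4th and 90.9th percentile of the 12346 transcripts that passed the filter over the 8 libraries. A part of the difference in TPM was thus shared with the typical transcript. The fitted log2 fold change was 0.57 ± 0.19 (SE, n = 3 pairs, 95% interval 0.08 to 1.07, adjusted p = 0.133), and the transcript was not called.

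FBtr0086836, which shares the reads of eIF3c-RB, was at 15.6, 24.9 and 25.7 TPM in the inputs and at 47.9, 39.7 and 30.8 TPM in the pull-downs. Summed over both transcripts, the set held 1700, 4585 and 4617 reads in the inputs and 4981, 4976 and 4692 in the pull-downs. The TMM-normalised log2 ratios of the sum were 0.51, 0.06 and 0.06. Its fitted log2 fold change was 0.23 ± 0.14 (SE, n = 3 pairs, 95% interval -0.13 to 0.58, adjusted p = 0.330), at the 67.1st percentile of the transcripts tested.

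Mapmodulin-RA was at 13.2, 13.6 and 12.8 TPM in the inputs and at 12.3, 8.41 and 10.2 TPM in the pull-downs. Every pull-down was below every input even on the plain TPM scale, on which the median transcript was higher in the pull-down. The TMM-normalised log2 ratios were -1.18, -1.34 and -0.58, the 5.97th, 1.48th and 5.86th percentile of the 12346 transcripts that passed the filter.

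The fitted log2 fold change of Mapmodulin-RA was -1.02 ± 0.19 (SE, n = 3 pairs, 95% interval -1.51 to -0.52), a fold change that only 1.60% of the transcripts tested fell below. Its adjusted p was 0.0522, just above the threshold. With DESeq2 in place of edgeR, where 466 transcripts (3.69%) were called enriched and 146 (1.16%) depleted, the log2 fold change was -1.02 with an adjusted p of 0.00485, and Mapmodulin-RA was called.

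Mapmodulin-RB was at 2.02, 1.76 and 2.41 TPM in the inputs and at 1.34, 1.82 and 2.05 TPM in the pull-downs, so the groups overlapped. Its TMM-normalised log2 ratios were -1.59, -0.59 and -0.48, all below 0. The fitted log2 fold change was -0.83 ± 0.28 (SE, n = 3 pairs, adjusted p = 0.132).

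Mapmodulin-RA and Mapmodulin-RB thus had negative estimates, and so did the set as a whole. Mapmodulin-RC, which was not tested, held 0%, 5.21% and 6.23% of the set's reads in the inputs (mean 3.81%, n = 3). In the pull-downs it held 12.6%, 13.5% and 7.63% (mean 11.2%, n = 3). The 0% was in input 1, where Mapmodulin-RD held 5.75%. In nanos-GAL4 Mapmodulin-RC held 9.25% before and 9.30% after pull-down. With HOW(S)-HA the 4 isoforms together held 1010, 1730 and 1720 reads in the inputs and 950, 827 and 1148 in the pull-downs. The log2 ratios of their sum were -1.01, -1.05 and -0.54, and the fitted log2 fold change was -0.84 ± 0.16 (SE, n = 3 pairs, 95% interval -1.25 to -0.44, adjusted p = 0.0513). The interval lay below 0, but the fold change was under the size required and the adjusted p just above the threshold.

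Bacc-RC was at 1.27, 1.23 and 1.03 TPM in the inputs and at 1.19, 0.985 and 1.62 TPM in the pull-downs, and the groups overlapped. Its TMM-normalised log2 ratios were -1.18, -0.91 and 0.34, so pair 3 went the other way from pairs 1 and 2. The fitted log2 fold change was -0.53 ± 0.37 (SE, n = 3 pairs, adjusted p = 0.387), and it was -1.10 without replicate 3. Summed over its read-sharing set of 342, 539 and 561 reads in the inputs, the log2 ratios were -0.54, -0.19 and -0.04 and the fitted log2 fold change was -0.23 ± 0.15 (SE, n = 3 pairs, adjusted p = 0.379).

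Bacc-RD had 4.62, 4.38 and 4.97 estimated reads in the inputs. In the pull-downs it had 14.9 reads in replicate 1 and none in replicates 2 and 3, where 3 reads would have been worth 0.0346 and 0.0280 TPM, against 0.0330 and 0.0377 TPM in the matching inputs. A change of this isoform was not detectable at this depth.

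**Figure D3:**
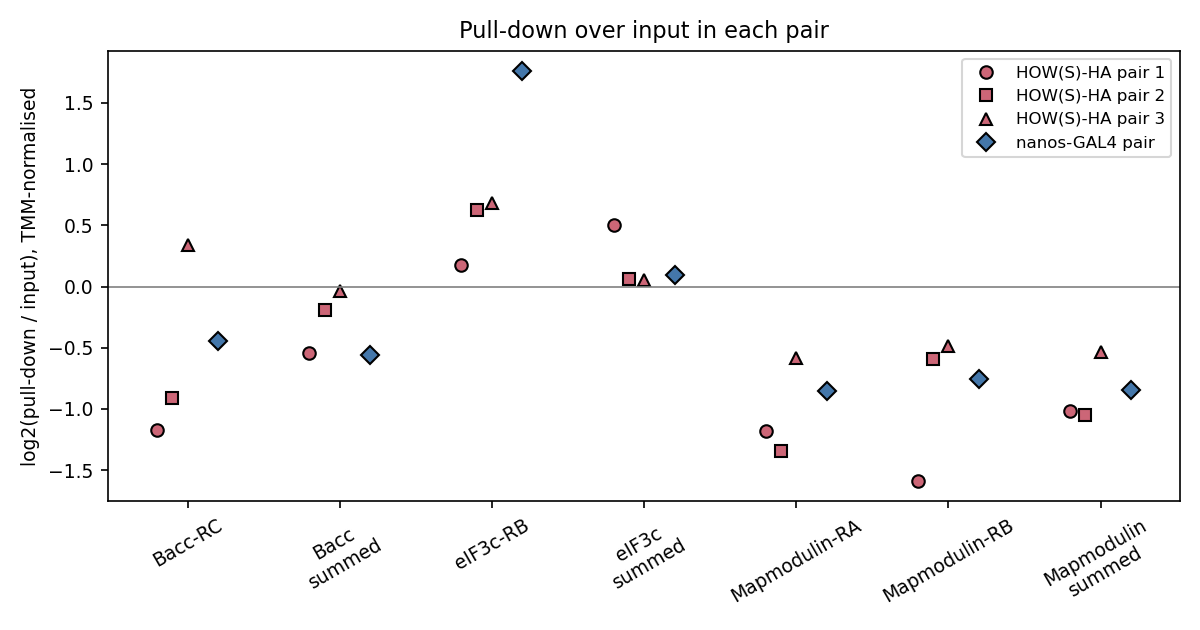
Log2 ratio of pull-down to input after TMM normalisation (vertical axis) for the tested transcripts and for the sums of their read-sharing sets, with 1 point per HOW(S)-HA pair and a diamond for the single nanos-GAL4 pair. All Mapmodulin points lay below 0 in both lines, and eIF3c-RB stood at 1.76 in nanos-GAL4, whereas the eIF3c sum stood at 0.10 there.

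The nanos-GAL4 pull-down shows what stayed on the beads without a tagged protein. It is 1 pair, so its ratios have no replicate check and no p-value. Of 15180 transcripts in that pair, 1260 (8.3%) had a log2 ratio of 1 or more and 692 (4.56%) one of -1 or less.

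eIF3c-RB went in this pair from 1.03 TPM (149 reads) to 5.80 TPM (500 reads). In plain TPM its pull-down level was above all 3 HOW(S)-HA pull-downs, but after TMM normalisation it lay within their range. The pull-down log2 CPM was 1.99 in nanos-GAL4, against 1.58, 2.03 and 1.93 with HOW(S)-HA. The input log2 CPM was 0.23 in nanos-GAL4, against 1.40, 1.41 and 1.25. The plain TPM ratio of eIF3c-RB was 5.61 (95% interval from counting error 4.65 to 6.77), more than in any HOW(S)-HA pair. After TMM normalisation across the 8 libraries the log2 ratio was 1.76, at the 98.3rd percentile of that pair. It was the only one of the 4 tested members past a log2 ratio of 1.

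FBtr0086836, which shares its reads, went from 30.9 to 46.7 TPM, a ratio of 1.51 and below the median of the pair. The set held 4395 reads before and 4353 after pull-down, and its TMM-normalised log2 ratio was 0.10, at the 57.3rd percentile.

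The Mapmodulin transcripts had ratios below 0 on the nanos-GAL4 beads as well. Mapmodulin-RA was at 16.6 TPM before and 14.2 TPM after pull-down, with a TMM-normalised log2 ratio of -0.85, between the lowest and the highest of the HOW(S)-HA pairs. Mapmodulin-RB was at 1.13 and 0.977 TPM, with a log2 ratio of -0.76, again between them. The sum of the 4 isoforms had a log2 ratio of -0.85, at the 5.36th percentile.

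Bacc-RC was at 1.10 TPM in the nanos-GAL4 input and 1.19 TPM in the pull-down, with a TMM-normalised log2 ratio of -0.45. Bacc-RD had 21.7 reads (0.200 TPM) before and none after pull-down, where 3 reads would have been worth 0.0463 TPM. Within the Bacc set FBtr0077713 went from 7.19 to 3.17 TPM while FBtr0077714 went from 7.33 to 12.1 TPM, and the sum had a log2 ratio of -0.56.

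Whether the pull-down differed between the lines was tested as an interaction in 1 model of all 8 libraries, in which only the pairs with HOW(S)-HA give a spread. None of 12346 transcripts (0%) was called in either direction, with 190 above 0 and 165 below 0 at an unadjusted p under 0.05 (2.88% of all tested). With DESeq2, 5 and 2 transcripts were called. For eIF3c-RB the log2 ratio in HOW(S)-HA minus that in nanos-GAL4 was -1.29 ± 0.39 (SE, 95% interval -2.28 to -0.30), with an unadjusted p of 0.0199 and an adjusted p of 1.00. It was thus lower with HOW(S)-HA in its estimate, and the difference did not survive the correction. The single nanos-GAL4 input enters both this difference and the comparison of the inputs below, so the 2 are not independent. For the eIF3c sum the difference was 0.11 ± 0.28 (SE, 95% interval -0.60 to 0.81).

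The other members had estimates near 0 with wide intervals. The difference was -0.18 for Mapmodulin-RA (95% interval -1.14 to 0.77), -0.01 for Mapmodulin-RB (-2.01 to 1.98) and -0.06 for Bacc-RC (-1.86 to 1.74). The sums gave -0.02 for Mapmodulin (-0.80 to 0.77) and 0.31 for Bacc (-0.46 to 1.08). Each of these intervals holds differences of either sign.

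The inputs ask whether the testes with HOW(S)-HA already held more or less of these RNAs. Only 2 of 12694 transcripts (0.0158%) were higher and none (0%) was lower in the 3 HOW(S)-HA inputs than in the single nanos-GAL4 input at an adjusted p of at most 0.05, with 818 and 406 at an unadjusted p under 0.05. The single input is assumed to vary like the others. DESeq2 called 96 and 18. No member was among the transcripts called, and the estimates were above 0 for all 4 tested.

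The 2 largest estimates belonged to isoforms with a low share of their set in nanos-GAL4. eIF3c-RB was at 1.48, 2.14 and 1.81 TPM in the HOW(S)-HA inputs and at 1.03 TPM in nanos-GAL4, a log2 fold change of 1.18 ± 0.22 (SE, n = 3 against 1, unadjusted p = 0.00439, adjusted p = 0.347). Mapmodulin-RB had a log2 fold change of 1.21 ± 0.33 (SE, n = 3 against 1, unadjusted p = 0.0185, adjusted p = 0.417). They lay above 97.6% and 97.8% of all transcripts tested.

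Summed over the sets, the estimates were near 0. The log2 fold change was -0.02 for eIF3c (95% interval -0.47 to 0.42), 0.09 for Mapmodulin (-0.47 to 0.66) and -0.10 for Bacc (-0.80 to 0.61). Mapmodulin-RA, the bulk of its set, was at 0.08 (-0.54 to 0.70), and Bacc-RC at 0.46 (-0.37 to 1.29). On the plain TPM scale, where Mapmodulin-RA was at 16.6 TPM in nanos-GAL4, it was lower in all 3 HOW(S)-HA inputs, and its log2 fold change without TMM factors was -0.34. The median of all transcripts tested was -0.38 under that setting, so Mapmodulin-RA lay near the typical transcript.

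**Figure D4:**
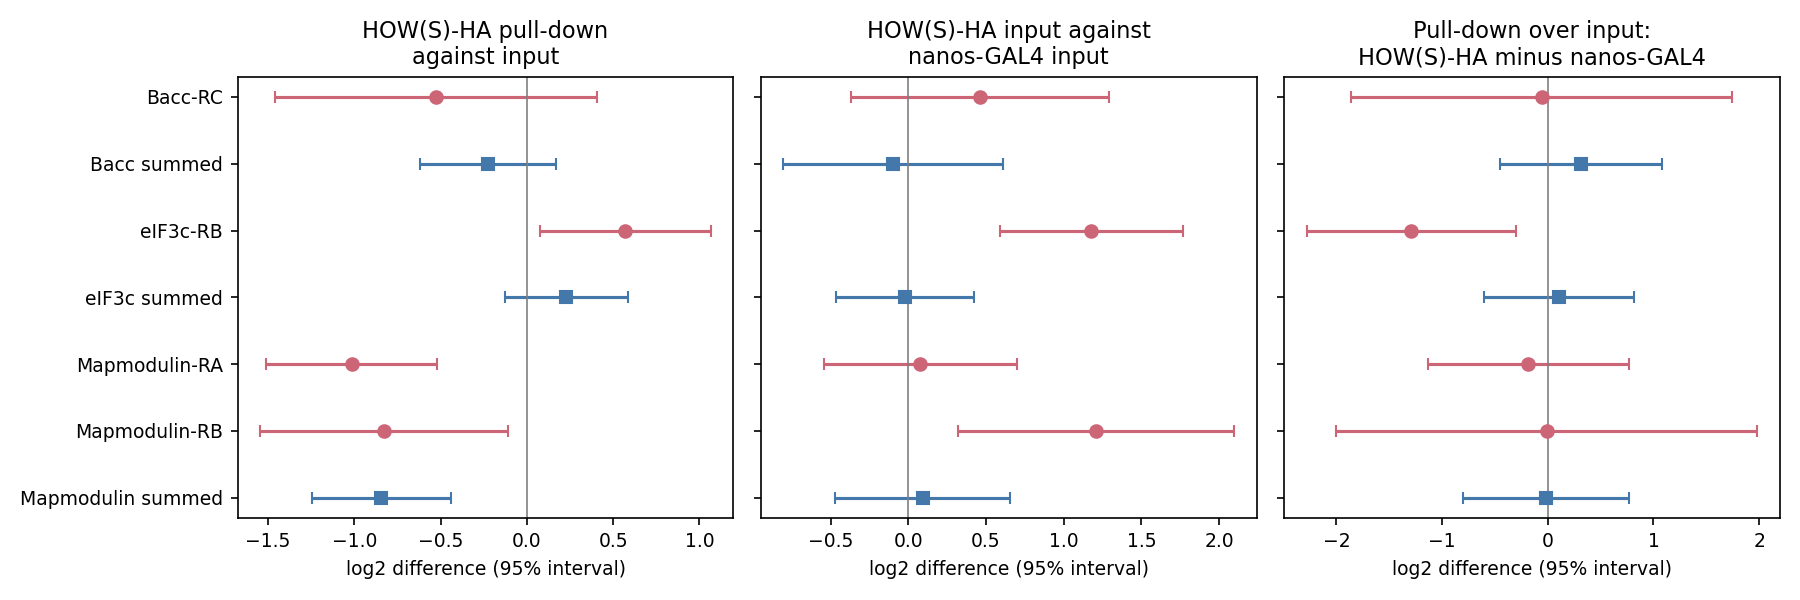
Fitted log2 differences with 95% intervals (horizontal axes, 1 scale per panel) for the 4 tested transcripts (circles) and the sums of the read-sharing sets (squares) in the 3 comparisons. The eIF3c-RB estimates of 1.18 between the inputs and -1.29 in the interaction stand beside sums of -0.02 and 0.11. Both comparisons use the same single nanos-GAL4 input. The Mapmodulin estimates in the pull-down lay below 0 for the isoforms and for the sum.

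The study's S2 cell list also names transcripts of other genes, 16 of which could be paired with an identifier over 7 genes. Of these, 7 passed the filter for the pull-down comparison, 0 were called (2 were at an unadjusted p under 0.05, against 29.2% of all transcripts tested), and their median log2 fold change was 0.06 against 0.02 over all transcripts tested. Among these 7 the highest log2 fold changes were those of Cdk12-RB at 0.77 and Cdk12-RA at 0.14, isoforms of a transcription-associated cyclin-dependent kinase. Cdk12-RB had an adjusted p of 0.200, and Cdk12-RC, the most abundant of its isoforms in the inputs, was at 0.08. Read sharing was not examined for the genes of this list. The most depleted were D1-RC at -0.68 and D1-RA at -0.59, isoforms of a chromosomal protein that binds AT-rich satellite DNA, with adjusted p-values of 0.0897 and 0.157. Mapmodulin-RA, at -1.02, lay below all 7. Some transcripts of the list that did not pass the filter reached further on the plain TPM scale. The mean log2 ratio was 3.03 for B52-RN (3 pairs, with 11.7, 11.1 and 16.9 input reads) and 3.23 for eIF5-RC (2 pairs). These means were 2.26 and 2.68 above the median transcript. In the nanos-GAL4 pair the log2 ratios were 1.95 and 2.80, which is 1.21 and 2.06 above the median transcript of that pair. Ldh-RC was at 0.28 in 1 pair, below the median transcript there.

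Across the 8 libraries the log2 CPM of Bacc-RC varied together with Mapmodulin-RB (Pearson r = 0.83) and Mapmodulin-RA (r = 0.78). That of eIF3c-RB varied in the opposite direction to Mapmodulin-RA (r = -0.67). The other pairs were at 0.61 for Mapmodulin-RA with Mapmodulin-RB, -0.21 for Bacc-RC with eIF3c-RB and -0.12 for eIF3c-RB with Mapmodulin-RB. Among the correlations of Mapmodulin-RA with 12345 transcripts, 0.78 was at the 89.0th percentile and -0.67 at the 19.2nd. Among those of Bacc-RC, 0.83 was at the 96.5th and 0.78 at the 93.9th. For eIF3c-RB, -0.67 was at the 8.55th. The libraries share input and pull-down as a source of variation, so these values are a description over 8 points. The transcripts with the most similar patterns among 12345 were FBtr0299568 for Mapmodulin-RA (r = 0.99), FBtr0071883 for Bacc-RC (r = 0.98) and FBtr0333267 for eIF3c-RB (r = 0.97). Next came FBtr0077256 and FBtr0071749 for Mapmodulin-RA, FBtr0332896 and FBtr0343704 for Bacc-RC, and FBtr0070723 and FBtr0337043 for eIF3c-RB. None of them is paired with a gene name in the sources used here.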

How the data were processed

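RNA of testis lysates and anti-HA eluates was depleted of rRNA and sequenced as stranded 75 bp single-end libraries. The authors trimmed reads with Cutadapt 1.1, removed rRNA and tRNA reads with Subread 2.0.0 and quantified FlyBase transcripts of Release 6 with Salmon 0.14.2. They deposited the TPM, relative to each library's total, and the estimated count of reads, which is not normalised, with lengths, for 30070 rows, 1 of which names no transcript and is at 0.

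Here scaledTPM counts (TPM times reads per unit of TPM, as in the study's methods) were rounded, filtered with filterByExpr (minimum count 10, minimum total 15, no groups), scaled by TMM and tested with the legacy quasi-likelihood F-test of edgeR 4.0.16 (R 4.3.3) with condition and pair as factors. Input and pull-down of a pair come from 1 lysate. The deviations of same-numbered libraries from their group means correlated at -0.02, -0.01 and 0.03. Those of libraries with unlike numbers correlated at -0.06 to 0.05, so the pairing was not visible in these deviations. Replicates are separate lysates. SEs come from the F statistic. The scaledTPM counts of the members were smaller than their estimated reads. For eIF3c-RB they were 13.5, 44.4 and 36.3 in the HOW(S)-HA inputs and 76.5, 126 and 75.8 in the pull-downs. Ratios of single pairs use log2(CPM) with a prior count of 2. Intervals of TPM ratios and shares cover counting error only. On simulated data for the pull-down comparison (12618 transcripts, 200 changed 4-fold), 198 were tested and 100% of these recovered, with 2 false calls. The log2 fold changes fitted for the members, from -1.02 to 0.57, were smaller than that. The simulation therefore does not show how often changes of their size would be called. DESeq2 1.42.0 was an alternative.

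Members and lists were chosen with earlier results of these data known. Transcripts named are the 5 members, other isoforms of their genes, transcripts found to share their reads, and the 3 most correlated with each gene's leading member. Of the S2 cell list they are the 2 highest and 2 lowest by tested fold change, Cdk12-RC as the most abundant isoform of its gene, and some that were not tested. Names come from the study's supplement. Lists of eIF3 subunits, PP2A-related genes and cell type markers were not analysed, since no table used here pairs their transcripts with names. Gene positions and transcript numbers come from RefSeq on Release 6.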

Additional observations from a re-analysis of the deposited data

How the results depend on the processing

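No alternative placed eIF3c-RB, Mapmodulin-RB or Bacc-RC past the threshold in the pull-down comparison except library totals without TMM factors, under which eIF3c-RB reached 1.19 (adjusted p = 0.0193) and the median of all transcripts was 0.66. The same setting reversed Bacc-RC to 0.072 and the Bacc sum to 0.43. DESeq2 called Mapmodulin-RA (-1.02). Without the replicate block Mapmodulin-RA was at -0.99 with an adjusted p of 0.0360, short of the fold required, and the pairing changed no call of a member.

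The number of transcripts enriched and depleted in the pull-down, 405 and 49, depended on the setting. It was 0 and 0 when the filter used the 2 conditions as groups (16878 tested) and with no filter, 3059 and 23 with library totals only, 466 and 146 with DESeq2, 197 and 7 with estimated reads and library totals, which were added after seeing the data. The number depleted was 17 with estimated reads and TMM and 81 without the block. Leaving out single replicates gave 5 to 338 enriched and 0 to 41 depleted, the lowest of both without replicate 2, and 66 and 13 without replicate 3. Leave-one-out log2 fold changes ran from -1.27 to -0.86 for Mapmodulin-RA, 0.45 to 0.69 for eIF3c-RB, -1.08 to -0.54 for Mapmodulin-RB, and -1.10 to -0.28 for Bacc-RC.

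Between the inputs, library totals only gave 11 higher and 50 lower, DESeq2 96 and 18, and estimated reads or no filter 0 higher. Leave-one-out counts ran from 0 to 5 higher and 0 to 1 lower, 5 and 1 without HOW(S)-HA input 1. Library totals reversed Mapmodulin-RA to -0.34 and the Mapmodulin sum to -0.33, where the median of all transcripts tested was -0.38. Estimated reads turned the Bacc sum to 0.00206. Leave-one-out values ran from -0.066 to 0.15 for Mapmodulin-RA, -0.031 to 0.17 for the Mapmodulin sum, -0.26 to 0.039 for the Bacc sum and -0.094 to 0.046 for the eIF3c sum.

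In the interaction, library totals gave 3 and 1 calls and DESeq2 5 and 2. Estimates near 0 changed sign. The Mapmodulin sum was at 0.031 with library totals, 0.086 with no filter, 0.000305 without the block and 0.13 with estimated reads and library totals, under which Bacc-RC was at 0.13, Mapmodulin-RA at 0.021 and Mapmodulin-RB at 0.11. Mapmodulin-RB was at 0.031 with no filter. Leave-one-out values ran from -0.61 to 0.24 for Bacc-RC, -0.41 to 0.043 for Mapmodulin-RA, -0.23 to 0.28 for Mapmodulin-RB, -0.18 to 0.15 for the Mapmodulin sum and -0.036 to 0.25 for the eIF3c sum. eIF3c-RB lay between -1.38 and -1.13 under all 13 alternatives.

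As plain TPM ratios the nanos-GAL4 log2 ratios were 0.11 for Bacc-RC, 2.49 for eIF3c-RB, -0.23 for Mapmodulin-RA and -0.21 for Mapmodulin-RB, against -0.47, 1.76, -0.87 and -0.79 with TMM factors of that pair alone. The cause of the other changes was not tested. The single nanos-GAL4 pair, the low reads of Bacc-RD and the division of shared reads by Salmon limit what can be said of single isoforms, since scaledTPM counts carry no error for that division.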
